A study of Mus musculus with 15 samples.

Results

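The 10 genes described here belong to the circadian clock of the mouse: Nr1d1, Nr1d2, Dbp, Tef, Hlf, Per1, Per2, Per3, Cry1 and Clock. They were taken by symbol from a table of 21013 gene symbols measured in submandibular glands, and all 10 were found and passed the filter on low counts, which 16042 symbols passed. Between groups, Nr1d1 was the 1 member of 10 that passed the edgeR test at an adjusted p under 0.05. It was lower in irradiated glands at day 30 than in nontreated glands and than in irradiated glands at day 4. In these comparisons 4.48% and 6.81% of all genes passed. Both calls were near the threshold, and limma-voom made neither. Most members also differed widely within groups. Dbp spanned an 8.06-fold range among the 3 irradiated, iEV-treated glands of day 30 and an 11.4-fold range among the 3 nontreated glands. In each of those groups a single library stood apart across most of the members, and Bmal1, the activator gene, stood apart in the opposite direction there.

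The clock is a loop of transcription factors that runs in nearly every mammalian cell. CLOCK, or its relative NPAS2, pairs with BMAL1 and binds E-boxes to switch on the Per, Cry, Nr1d1, Nr1d2, Dbp, Tef and Hlf genes. PER and CRY proteins then block that pair, NR1D1 and NR1D2 (REV-ERB alpha and beta) repress Bmal1 through ROR elements, and DBP, TEF and HLF act on D-boxes. In mouse peripheral organs, Bmal1 and Npas2 transcripts are high when Dbp and Nr1d1 transcripts are low, and the salivary gland is among the organs with such a rhythm. Clock itself encodes an activator, so the heading of output and repressor genes covers only the other 9 members.

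The glands came from wildtype male C57BL/6 mice 8 to 10 weeks old. In IR_iEV_30d and IR_30d the gland region had received 15 Gy of radiation and the glands were taken 30 days later. In IR_iEV_4d and IR_4d they were taken 4 days after the same dose. The IR_iEV mice were also given iEVs into the gland every week from day 1. The meaning of iEV is not written out in the labels; the title of the series names vesicles from mesenchymal stem cells. NT glands were nontreated, and the day of their collection is not given. Each group had 3 libraries, 15 in all. No group received a vehicle injection or iEVs without radiation, so a difference between IR_iEV and IR groups cannot be told apart from that of the injection. Whether each library came from its own mouse is not stated, so p-values measure the spread between these libraries, which may be technical. The hour of collection is not given in the sources used here, so hour, library and group cannot be told apart for genes of a daily rhythm. In whole glands, fewer cells of a type and less RNA per cell cannot be told apart either.

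Libraries held 29082798 to 52201098 counts in genes, and member counts ran from 109 (Hlf) to 8040 (Tef) per library. For most members and groups, counting error was small beside the spread between libraries. It was not for Hlf in IR_4d and IR_iEV_4d (SD 4.11% and 4.38% of the mean) or Per2 in IR_iEV_4d (2.96%), where the spread was no larger than counting error. Submandibular markers were high in every library, with a mean log2 CPM of 8.51 to 10.3, except Smr3a. It had no count in NT replicates 1 and 2 and IR_iEV_30d replicate 1, at most 0.074 CPM in NT, and up to 1898 CPM in IR_4d. Parotid markers had a mean log2 CPM of 5.54 to 9.55 in IR_4d and 7.99 to 9.40 in IR_iEV_4d, against 3.94 to 5.17 in NT. All day 4 libraries thus lay above all NT libraries, as for Per2 and Hlf below. Whether the parotid difference bears on these genes was not tested. Sublingual markers were high in 6 libraries (mean log2 CPM 4.86 to 7.93) and low in the other 9 (-1.53 to 1.15). The 6 were IR_iEV_30d replicate 2, IR_iEV_4d replicates 2 and 3, IR_4d replicates 1 and 2, and NT replicate 1, and none was an IR_30d library. In the low libraries Gcnt3 was at 0 in 6 and Dcpp2 in 1. Levels below are CPM, the usual scaling of counts to library size, with effective library sizes from edgeR.

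Promoter windows of 9 members were matched by symbol in RefSeq (GRCm38.p6), each running from 250 bases before to 50 bases after a start of transcription. The windows were searched on both strands for the E-box CACGTG, the D-box TTANGTAA and the ROR element TAGGTCA. No pair of these motifs overlapped in the members. An E-box was in a window of 3 members, Tef, Per1 and Cry1, and in windows of 8.09% of 27025 genes. A D-box was in 1 member, Per3, and in 2.72% of genes. The ROR element was in 0 members and in 2.97% of genes, but it was in a window of Bmal1 (Arntl in the table), 30 bases after the start. The stretches below hold these matches, with the motif in capitals, and are shown because they are the elements through which members of the loop are known to be switched. A match is a description of letters, and no match says only that these letters are not in this window.
Tef, first start, chr15:81802516-81802581, plus strand: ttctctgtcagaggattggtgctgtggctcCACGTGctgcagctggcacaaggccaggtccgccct
Tef, second start, chr15:81811246-81811311, plus strand: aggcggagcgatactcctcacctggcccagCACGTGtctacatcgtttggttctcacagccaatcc
Per1, chr11:69098753-69098818, plus strand: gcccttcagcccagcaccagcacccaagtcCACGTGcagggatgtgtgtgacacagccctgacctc
Cry1, chr10:85185079-85185144, minus strand: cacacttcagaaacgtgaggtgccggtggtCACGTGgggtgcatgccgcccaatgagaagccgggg
Per3, distal D-box, chr4:151044833-151044900, minus strand: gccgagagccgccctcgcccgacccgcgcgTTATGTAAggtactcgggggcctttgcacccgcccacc
Per3, proximal D-box, chr4:151044786-151044853, minus strand: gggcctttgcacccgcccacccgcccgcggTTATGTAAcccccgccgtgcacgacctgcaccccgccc
Bmal1, chr7:113207530-113207558, plus strand: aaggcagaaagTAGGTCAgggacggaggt

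The pattern over libraries was clearer than the pattern over groups. IR_iEV_30d replicate 3 had the highest level of its group for 8 of 10 members, all but Cry1 and Clock, and the lowest for Clock. IR_30d replicate 1 was the highest of its group for 7 of 10, and IR_4d replicate 2 the lowest of its group for 7 of 10. NT replicate 1 had the lowest level of its group for 8 of 10 members and the highest for the other 2, Cry1 and Clock. It also stood apart over genes in general. Its chi-square per degree of freedom was 116.6 and 95.8 against NT replicates 2 and 3, which differed by 17.7 from each other. The share of all genes in the same order was not counted. NT replicate 1 and IR_iEV_30d replicate 3 were singled out by the clock genes themselves, so p-values without them are too small. Values without NT replicate 1, IR_iEV_30d replicate 3 or both are given beside several of the ratios.

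**Figure D1:**
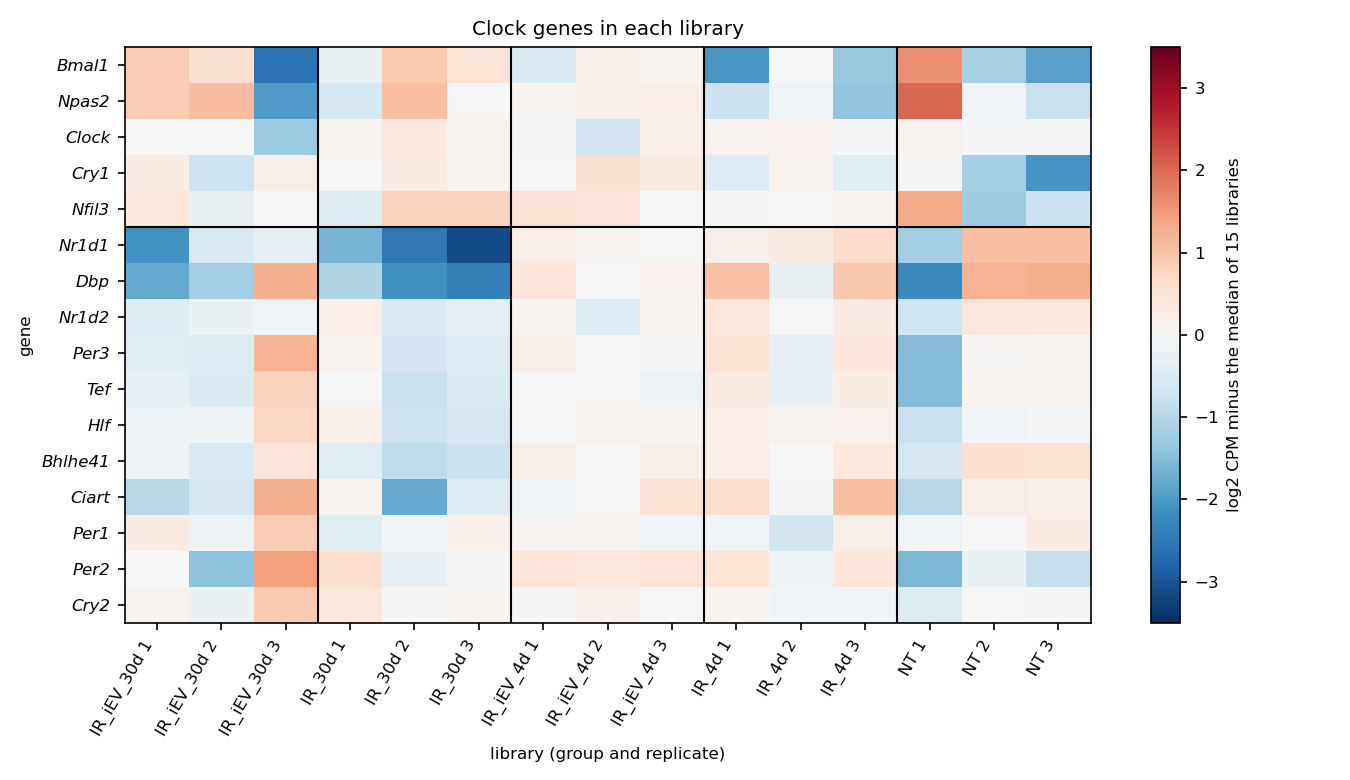
Log2 CPM of the 10 clock genes and 6 other clock genes in each of 15 libraries (columns, by group and replicate), minus the median of the gene over all libraries. The horizontal line divides activators, Cry1 and Nfil3 (above) from output genes and other repressors (below): IR_iEV_30d replicate 3 is red for Dbp at 56.1 CPM and blue for Bmal1 at 1.62 CPM, while NT replicate 1 is blue for Dbp at 4.96 CPM and red for Bmal1 at 29.7 CPM.

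**Figure D2:**
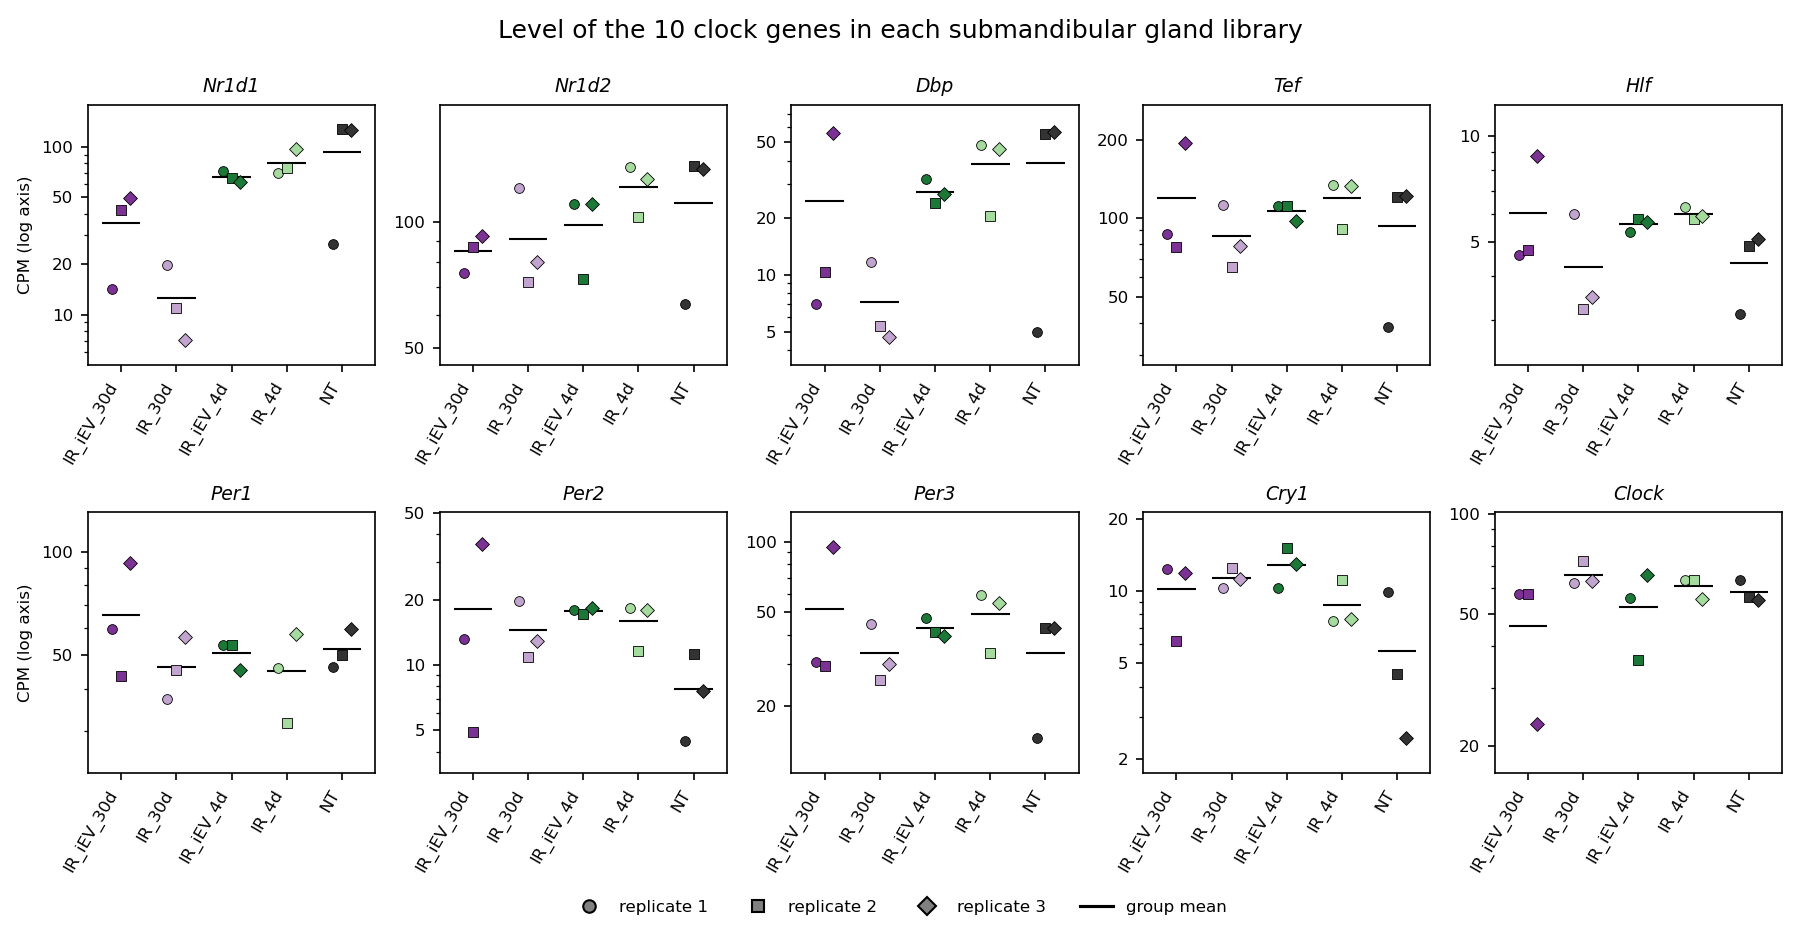
CPM on a log axis of the 10 members in each library, with 1 panel per gene, the 5 groups along the horizontal axis, symbols for replicates and a bar for the group mean. Nr1d1 sits at 7.01 to 19.8 CPM in IR_30d, below every library of IR_4d (69.8 to 97.5 CPM) and of NT (26.3 to 127.7 CPM), while for Dbp and Tef the replicates of NT and of IR_iEV_30d lie far apart.

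Nr1d1 encodes the repressor REV-ERB alpha. It had 14.2, 42.1 and 49.6 CPM in IR_iEV_30d, 19.8, 10.9 and 7.01 CPM in IR_30d, 71.7, 64.8 and 61.5 CPM in IR_iEV_4d, 69.8, 74.5 and 97.5 CPM in IR_4d, and 26.3, 127.7 and 126.4 CPM in NT glands (replicates 1, 2 and 3 in that order, here and for the other genes). All 6 libraries of day 30 lay below all 6 of day 4, and NT replicate 1 lay among the day 30 values. Against NT, Nr1d1 fell by 2.90 ± 0.65 (SE) on the log2 scale in IR_30d (95% interval -4.34 to -1.45, edgeR quasi-likelihood test, Benjamini-Hochberg adjusted p = 0.0325), and the groups did not overlap. Against IR_4d it fell by 2.68 ± 0.65 in IR_30d (-4.12 to -1.25, edgeR adjusted p = 0.0341), again with no overlap. In the groups given iEVs the log2 ratio of day 30 to day 4 was -0.90 ± 0.60, with all libraries lower but the edgeR adjusted p at 0.408. By mean level the order was IR_30d (12.6 ± 6.55 CPM, SD, n = 3), IR_iEV_30d (35.3 ± 18.6), IR_iEV_4d (66.0 ± 5.22), IR_4d (80.6 ± 14.8) and NT (93.5 ± 58.2), and of the neighbours in that order only IR_iEV_30d and IR_iEV_4d did not overlap.

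The fall of Nr1d1 was near the threshold. Leaving out any 1 of NT replicate 2, NT replicate 3 or the 3 IR_30d libraries ended the call against NT, at edgeR adjusted p = 0.0502 to 0.139. Leaving out any 1 of the 6 libraries ended the call against IR_4d (edgeR adjusted p = 0.0524 to 0.132), with log2 ratios of -3.17 to -2.39. Without NT replicate 1 the ratio to NT was -3.34 (edgeR adjusted p = 0.0089), a p-value that is too small because the library was singled out by these genes.

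Other measures also differed between these groups, but not in step with Nr1d1 in every library. Within NT, replicate 1 was lowest in Nr1d1 (26.3 CPM), yet highest in sublingual markers and lowest in the glucocorticoid-responsive genes given below. None of the 3 IR_30d libraries was high in sublingual markers (-0.843 to 0.905, mean log2 CPM of 6 genes), against 1 of 3 in NT (-1.53 to 4.86) and 2 of 3 in IR_4d (1.15 to 7.93). Without the 6 libraries high in those markers, the log2 ratios of Nr1d1 were -3.36 to NT and -2.97 to IR_4d, as large as with them. The ratio to NT, with NT replicate 1 among those left out, had an edgeR adjusted p of 0.144. Only replicate 3 remained in IR_4d, so no p-value is given there. Adipose markers had a mean log2 CPM of 0.129 to 1.64 in IR_30d, -0.563 to 3.45 in IR_4d and -1.14 to 1.15 in NT glands. With both marker levels as covariates the ratios were -2.91 and -3.05, with edgeR adjusted p = 0.0753 and 0.0923. The glucocorticoid-responsive genes, 10 of 10 measured, had a mean log2 CPM of 5.388 to 5.455 in IR_30d, above IR_4d (4.809 to 5.386) and above NT (4.660 to 5.369), and their part in the result was not tested. In GENCODE M21 annotation, Nr1d1 shares 263 exonic bases with Thra on the opposite strand, and the strand setting of the authors' counting is not given in the sources used here. Thra stayed at 31.4 to 43.7 CPM over the 15 libraries.

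Nr1d2 encodes REV-ERB beta, which shares targets with REV-ERB alpha. It had 75.7, 87.3 and 92.2 CPM in IR_iEV_30d, 120.6, 71.9 and 80.4 CPM in IR_30d, 110.5, 73.2 and 110.4 CPM in IR_iEV_4d, 135.3, 102.5 and 126.1 CPM in IR_4d, and 63.8, 135.8 and 133.5 CPM in NT glands. Its range over all libraries was 2.13-fold, the narrowest of the 10 members, where that of Nr1d1 was 18.2-fold. In IR_30d the log2 ratio of Nr1d2 was -0.29 ± 0.29 to NT (edgeR adjusted p = 0.721) and -0.42 ± 0.29 to IR_4d (edgeR adjusted p = 0.483). Per kilobase of exon, Nr1d1 averaged 4.09 ± 2.13 CPM and Nr1d2 16.8 ± 4.81 CPM in IR_30d, while in NT glands they averaged 30.4 ± 18.9 and 20.5 ± 7.57 CPM (SD, n = 3 each).

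Dbp, Tef and Hlf encode the 3 PAR bZIP factors that bind D-boxes. Dbp had 6.96, 10.3 and 56.1 CPM in IR_iEV_30d, 11.6, 5.36 and 4.67 CPM in IR_30d, 31.8, 23.9 and 26.6 CPM in IR_iEV_4d, 48.4, 20.4 and 45.9 CPM in IR_4d, and 4.96, 55.1 and 56.4 CPM in NT glands. NT replicate 1 was within the IR_30d range, and IR_iEV_30d replicate 3 was at the level of the other two NT libraries. The log2 ratio of Dbp in IR_30d was -2.44 ± 0.97 to NT (95% interval -4.59 to -0.28, edgeR adjusted p = 0.239), with overlapping groups. It was -2.41 ± 0.97 to IR_4d (-4.57 to -0.25, edgeR adjusted p = 0.198), with all 3 IR_30d libraries lower. Neither passed the threshold, and DESeq2 gave Dbp no adjusted p. Without NT replicate 1 and IR_iEV_30d replicate 3, the SE of the model fell and both ratios passed, at -2.96 ± 0.46 to NT (edgeR adjusted p = 0.0102) and -2.41 ± 0.43 to IR_4d (edgeR adjusted p = 0.00951), p-values that are too small for the reason given above. Dbp shares 539 exonic bases with Sphk2 on the opposite strand, and Sphk2 was at 45.0 to 60.9 CPM in every library.

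Tef had 87.0, 77.9 and 194.2 CPM in IR_iEV_30d, 113.0, 65.2 and 78.6 CPM in IR_30d, 111.1, 111.1 and 97.9 CPM in IR_iEV_4d, 134.5, 90.7 and 133.2 CPM in IR_4d, and 38.6, 120.6 and 121.5 CPM in NT glands. Its highest library of all 15 was IR_iEV_30d replicate 3 and its lowest NT replicate 1, a 5.03-fold range. Hlf was highest in IR_iEV_30d replicate 3, at 8.79 CPM, and lowest in NT replicate 1, at 3.12 CPM, a 2.81-fold range. At day 4 neither group of Hlf overlapped NT, at 5.34 to 5.81 CPM in IR_iEV_4d and 5.80 to 6.27 CPM in IR_4d, against 3.12 to 5.10 CPM in NT glands. Those log2 ratios to NT were 0.36 ± 0.26 (edgeR adjusted p = 0.542) and 0.45 ± 0.27 (edgeR adjusted p = 0.564), so neither passed. Per kilobase of exon, mean levels in NT glands were 13.0 ± 9.79 CPM for Dbp, 11.9 ± 6.05 CPM for Tef and 0.654 ± 0.162 CPM for Hlf (SD, n = 3).

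The Per genes encode the repressors that join CRY proteins. Per1, which also responds quickly to glucocorticoids and other signals, had 59.6, 43.6 and 93.3 CPM in IR_iEV_30d, 37.2, 45.4 and 56.5 CPM in IR_30d, 53.5, 53.8 and 45.5 CPM in IR_iEV_4d, 46.0, 31.8 and 57.7 CPM in IR_4d, and 46.4, 50.1 and 59.7 CPM in NT glands. All group means of Per1 were between 45.2 and 65.5 CPM, and 14 of its 15 libraries lay between 31.8 and 59.7 CPM, the exception being IR_iEV_30d replicate 3. Per3 had 30.6, 29.5 and 95.1 CPM in IR_iEV_30d, 44.8, 25.8 and 30.3 CPM in IR_30d, 47.2, 41.2 and 39.7 CPM in IR_iEV_4d, 59.0, 33.6 and 55.0 CPM in IR_4d, and 14.5, 42.8 and 42.9 CPM in NT glands. As for Tef, NT replicate 1 was the lowest of all libraries and IR_iEV_30d replicate 3 the highest. Log2 ratios of Per3 in IR_30d were 0.01 ± 0.52 to NT and -0.55 ± 0.52 to IR_4d (edgeR adjusted p = 0.998 and 0.634). Without NT replicate 1 and IR_iEV_30d replicate 3, the ratio to NT was -0.35 ± 0.26 for Per3 and -0.50 ± 0.22 for Tef (edgeR adjusted p = 0.572 and 0.296).

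Per2 had 13.3, 4.93 and 36.1 CPM in IR_iEV_30d, 19.8, 11.0 and 13.0 CPM in IR_30d, 17.9, 17.2 and 18.3 CPM in IR_iEV_4d, 18.4, 11.7 and 17.9 CPM in IR_4d, and 4.47, 11.2 and 7.56 CPM in NT glands. All 6 libraries of day 4 were above all 3 NT libraries. The log2 ratios to NT were 1.20 ± 0.59 in IR_iEV_4d (95% interval -0.11 to 2.51, edgeR adjusted p = 0.345) and 1.05 ± 0.59 in IR_4d (-0.27 to 2.36, edgeR adjusted p = 0.563), so the difference did not pass the test. Unlike Dbp, Tef and Per3, Per2 was not high in NT replicates 2 and 3.

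Cry1 encodes the partner of PER proteins in the repressor complex and is known to peak later than the Per genes. It had 12.4, 6.21 and 11.9 CPM in IR_iEV_30d, 10.3, 12.5 and 11.2 CPM in IR_30d, 10.3, 15.1 and 12.9 CPM in IR_iEV_4d, 7.54, 11.1 and 7.62 CPM in IR_4d, and 9.88, 4.53 and 2.46 CPM in NT glands. All libraries of IR_30d and of IR_iEV_4d lay above all NT libraries. The log2 ratios to NT were 1.03 ± 0.41 in IR_30d (95% interval 0.13 to 1.92, edgeR adjusted p = 0.230) and 1.20 ± 0.41 in IR_iEV_4d (0.30 to 2.10, edgeR adjusted p = 0.155), and neither passed. Both passed without NT replicate 1, at 1.72 in IR_30d (edgeR adjusted p = 0.0133) and 1.90 in IR_iEV_4d (edgeR adjusted p = 0.00588), again with the p-values too small. Over the other libraries left out in turn, the lowest values were 0.65 and 0.83, with adjusted p up to 0.449 and 0.409.

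Clock, the activator among the members, had 57.5, 57.5 and 23.3 CPM in IR_iEV_30d, 62.0, 72.3 and 63.0 CPM in IR_30d, 55.9, 36.5 and 65.4 CPM in IR_iEV_4d, 63.2, 63.3 and 55.5 CPM in IR_4d, and 63.1, 56.2 and 54.9 CPM in NT glands. All but 2 libraries were between 54.9 and 72.3 CPM. The low ones were IR_iEV_30d replicate 3 and IR_iEV_4d replicate 2. Those libraries also had the lowest share of long transcripts: the median log2 deviation of the longest 10% of genes minus that of the shortest 10% was -0.291 and -0.227 there, against -0.0927 to 0.0965 in the other 13. Clock has 13727 exonic bases, the most of the 10 members, and Rora, with 13071, was also lowest in these libraries, at 17.4 and 20.0 CPM. Per3 and Tef, the next longest members with 9608 and 7867 bases, were not low there. They were at their highest in IR_iEV_30d replicate 3 (95.1 and 194.2 CPM) and at their median in IR_iEV_4d replicate 2 (41.2 and 111.1 CPM). IR_iEV_4d replicate 2 was also the highest library in skeletal muscle markers (mean log2 CPM 3.14), with IR_iEV_4d replicate 3 next at -1.78. It was the highest in adipose markers too (4.74). Whether transcript length or other tissue plays a part in the Clock levels of the low libraries was not tested. Clock was lower in IR_iEV_30d than in IR_30d in all libraries, with a log2 ratio of -0.52 ± 0.29 (edgeR adjusted p = 0.501), which was -0.19 without IR_iEV_30d replicate 3.

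The partners of CLOCK were not members but turned the other way. Bmal1 had 18.2, 14.3 and 1.62 CPM in IR_iEV_30d, 8.13, 18.4 and 13.7 CPM in IR_30d, 6.75, 11.1 and 10.4 CPM in IR_iEV_4d, 2.37, 9.78 and 3.92 CPM in IR_4d, and 29.7, 4.37 and 2.63 CPM in NT glands. Npas2 had 6.42, 7.30 and 0.869 CPM in IR_iEV_30d, 2.27, 7.17 and 3.45 CPM in IR_30d, 3.67, 3.93 and 4.07 CPM in IR_iEV_4d, 2.07, 3.11 and 1.33 CPM in IR_4d, and 13.8, 3.18 and 2.02 CPM in NT glands. Both had their highest level of the 15 libraries in NT replicate 1 and their lowest in IR_iEV_30d replicate 3. The log2 difference of Dbp minus Bmal1 was -1.39, -0.48 and 5.12 in IR_iEV_30d, 0.51, -1.78 and -1.55 in IR_30d, 2.24, 1.11 and 1.35 in IR_iEV_4d, 4.35, 1.06 and 3.55 in IR_4d, and -2.58, 3.66 and 4.42 in NT glands. It was below 0 in 5 libraries: 2 of IR_iEV_30d, 2 of IR_30d and 1 of NT. All 6 libraries of day 4 had more Dbp than Bmal1. The log2 ratio of Bmal1 in IR_30d was 0.15 ± 0.97 to NT (edgeR adjusted p = 0.970) and 1.32 ± 1.02 to IR_4d (edgeR adjusted p = 0.542), and neither passed. The ratio near 0 rests on NT replicate 1: without it and IR_iEV_30d replicate 3 the ratio to NT was 1.96 ± 0.62 (edgeR adjusted p = 0.141), which did not pass either.

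**Figure D3:**
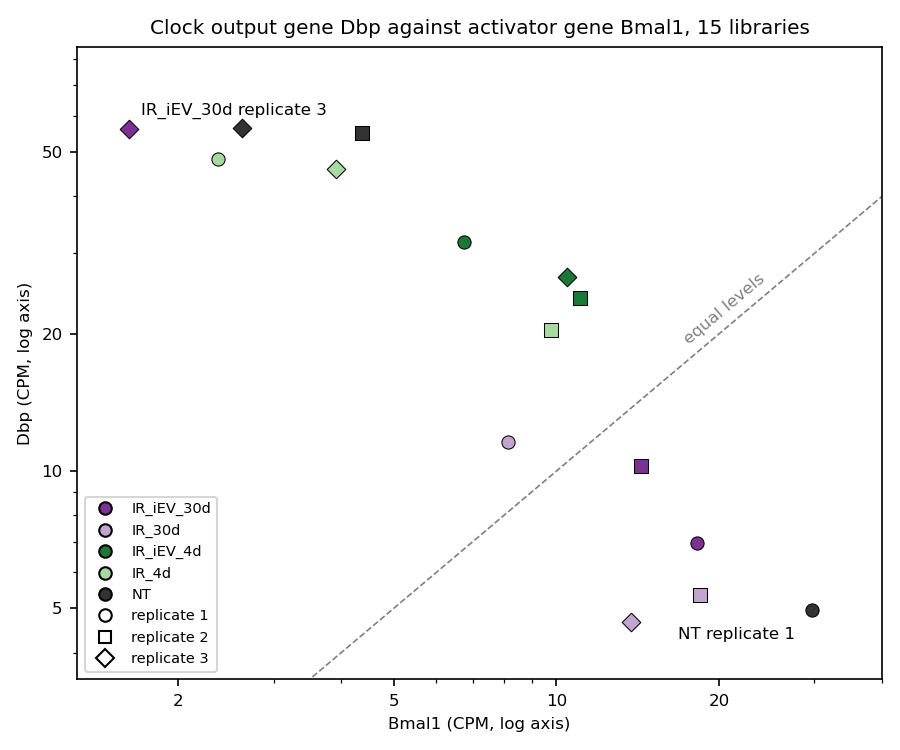
Level of Dbp (vertical, CPM, log axis) against Bmal1 (horizontal, CPM, log axis) in each of 15 libraries, with colours for groups, symbols for replicates and a dashed line where both levels are equal. The points fall along 1 descending band: IR_iEV_30d replicate 3 (56.1 CPM of Dbp, 1.62 CPM of Bmal1) is at 1 end beside NT replicates 2 and 3, and NT replicate 1 (4.96 CPM of Dbp, 29.7 CPM of Bmal1) is at the other beside day 30 libraries.

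The members also varied together. A profile was made of the mean standardised log2 CPM of 8 members (all but Cry1 and Clock), which was 1.42 in IR_iEV_30d replicate 3, -1.57 in NT replicate 1 and between -1.07 and 0.763 in the other 13 libraries. Pearson's r with this profile over the 15 libraries was 0.968 for Tef, 0.962 for Per3 and 0.924 for Dbp, which are part of it, and 0.674 for Nr1d1 and 0.458 for Per1. Among clock genes outside it, r was -0.922 for Bmal1, -0.895 for Npas2, 0.895 for Ciart and 0.872 for Bhlhe41. Leaving out NT replicate 1 and IR_iEV_30d replicate 3, it was -0.869, -0.778, 0.885 and 0.911 for those genes. It was 0.835 for Nr1d1, but 0.176 for Per1 and 0.418 for Per2. These values are a description: the points share library, depth and group. In IR_iEV_30d replicate 3, a day 30 library, Nr1d1 departed from the profile. That library had the highest Tef, Per3, Per2, Per1 and Hlf of all libraries and yet less Nr1d1 (49.6 CPM) than any day 4 library.

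Of the other 12203 genes with a mean of at least 1 CPM, excluding clock genes and predicted genes, those closest to the profile were Sec14l1 (r = 0.900), Lcp1 (0.873), Tfap2c (0.851), Mpv17l (0.847) and Igsf9b (0.836). The most opposite were Cyb5r4 (r = -0.932), Tab2 (-0.834), Slc34a2 (-0.830), Rbm45 (-0.808) and Ttpa (-0.785). Lcp1 encodes the actin-bundling protein plastin of blood cells, Tfap2c an AP-2 transcription factor, Cyb5r4 a cytochrome b5 reductase and Slc34a2 a phosphate transporter of secretory epithelia. Without the 2 libraries farthest out, r was 0.787 for Sec14l1, 0.891 for Lcp1, -0.903 for Cyb5r4 and -0.574 for Ttpa.

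Among the other repressors, Bhlhe41 (DEC2) had 12.4, 9.06 and 9.89 CPM in IR_30d, 19.8, 16.7 and 21.7 CPM in IR_4d, and 11.2, 25.2 and 23.9 CPM in NT glands. Its log2 ratios in IR_30d were -0.94 ± 0.29 to NT and -0.89 ± 0.29 to IR_4d (edgeR adjusted p = 0.0978 and 0.0983), and neither passed. Without NT replicate 1 and IR_iEV_30d replicate 3 both passed, at -1.23 ± 0.15 to NT (edgeR adjusted p = 9.68e-05) and -0.89 ± 0.14 to IR_4d (edgeR adjusted p = 0.000431), p-values that are again too small. The same fit gave -0.90 ± 0.16 in IR_iEV_30d against NT (edgeR adjusted p = 0.0109). Nfil3, which binds D-boxes as a repressor, had 28.3, 18.0 and 21.5 CPM in IR_iEV_30d, 15.8, 38.1 and 37.7 CPM in IR_30d, 21.1, 21.7 and 22.9 CPM in IR_4d, and 54.9, 9.21 and 13.0 CPM in NT glands. It was thus highest in NT replicate 1, as Bmal1 was. Its log2 ratio in IR_30d to NT was 0.25 ± 0.58 with all libraries and 1.45 ± 0.39 without those 2 (edgeR adjusted p = 0.902 and 0.0887). Ciart (0.315 to 2.54 CPM), Cry2 (11.0 to 28.7 CPM) and Bhlhe40 (69.3 to 151.1 CPM) passed in no comparison. Rora (17.4 to 32.6 CPM) and Bmal2 (0.346 to 1.38 CPM) did not pass either, and Rorb, at 0 to 4 counts, was not tested. In edgeR, 0 of 6 further outputs (Wee1, Usp2, Nampt, Tspan4, Por and Lonrf3) passed in any comparison, where 0.0312% to 8.27% of all genes did. Up to 2 had an unadjusted p under 0.05, in IR_30d against NT and in IR_iEV_4d against NT. In those comparisons 16.3% and 16.6% of all genes did.

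Between IR_30d and NT, Nr1d1 was the 1 of 10 members past the threshold, at an edgeR adjusted p under 0.05, and it was lower. Of all 16042 genes tested, 4.48% passed in this comparison, 3.19% higher and 1.29% lower. At an unadjusted p under 0.05 there were 3 of 10 members, Nr1d1, Dbp and Cry1, and 16.3% of all genes. The median log2 ratio of the members was -0.09, with 4 above 0 and 6 below, against 0.00 for all genes. Between IR_30d and IR_4d it was again 1 of 10, Nr1d1, where 6.81% of all genes passed, 4.81% higher and 1.99% lower. At an unadjusted p under 0.05 there were 2 of 10 members, Nr1d1 and Dbp, and 19.8% of all genes. There the members' median was -0.45, with 7 of 10 below 0, against -0.01 for all genes. Both comparisons share the IR_30d libraries. DESeq2 called the same gene in both comparisons (adjusted p = 7.92e-05 and 0.000283), and limma-voom called 0 members in either, with 2 at an unadjusted p under 0.05 in each.

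Between IR_4d and NT, 0 of 10 members passed, where 1.4% of all genes did, and 0 had an unadjusted p under 0.05, against 11.6% of all genes. Log2 ratios ran from -0.22 (Nr1d1) to 1.05 (Per2), and the interval of Nr1d1, -1.54 to 1.11, leaves room for a change of more than 2-fold either way. DESeq2 and limma-voom also called 0.

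iEVs were compared with radiation alone on each day. At day 30, 0 of 10 members passed between IR_iEV_30d and IR_30d in edgeR, where 0.798% of all genes did, and 1 (Nr1d1) had an unadjusted p under 0.05, against 12.9% of all genes. The largest log2 ratios were 1.78 ± 0.96 for Dbp (95% interval -0.36 to 3.91, edgeR adjusted p = 0.484) and 1.49 ± 0.63 for Nr1d1 (0.10 to 2.89, edgeR adjusted p = 0.359). The median was 0.49, with 7 of 10 above 0, against -0.01 for all genes. Much of this came with IR_iEV_30d replicate 3: without it the ratio was 0.26 for Dbp, 1.17 for Nr1d1, -0.05 for Tef, -0.67 for Per2 and -0.16 for Per3. At day 4, 0 of 10 passed between IR_iEV_4d and IR_4d, where 0.0312% of all genes did, and 0 had an unadjusted p under 0.05, against 6.81% of all genes. Log2 ratios there ran from -0.48 (Dbp) to 0.55 (Cry1), and the interval for Dbp was -2.48 to 1.53. For the difference between days in the iEV ratio, 0 of 10 passed, against 0.125% of all genes, and 0 had an unadjusted p under 0.05, against 9.05% of all genes. Its values were 1.78 ± 0.87 for Nr1d1 (edgeR adjusted p = 0.594) and 2.25 ± 1.32 for Dbp (edgeR adjusted p = 0.700). DESeq2, which gave Dbp no adjusted p, and limma-voom called 0 in these comparisons.

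**Figure D4:**
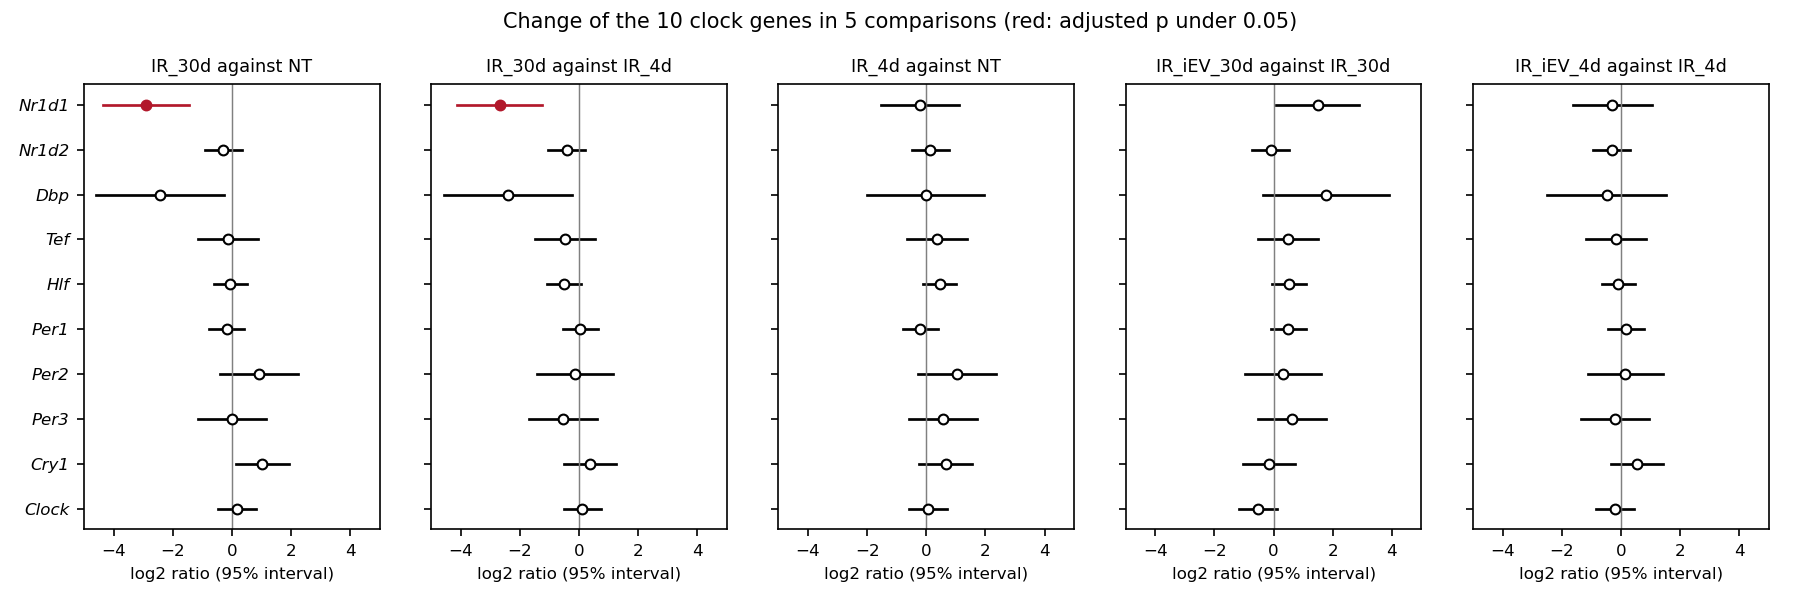
Log2 ratio (points) with its 95% interval (lines) of the 10 members in 5 comparisons, 1 panel each, from the edgeR model, in red where the adjusted p was under 0.05. Nr1d1 is red at -2.90 and -2.68 in the first 2 panels, and the widest intervals belong to Dbp, from -4.59 to -0.28 in IR_30d against NT.

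In the remaining comparisons edgeR called 0 of 10 members. Between IR_iEV_30d and IR_iEV_4d 8.27% of all genes passed, and 0 members had an unadjusted p under 0.05, against 24.2% of all genes. Between IR_iEV_4d and NT 2.31% of all genes passed, and 1 member, Cry1, had an unadjusted p under 0.05, against 16.6% of all genes. Its log2 ratio was 1.20 ± 0.41 (edgeR adjusted p = 0.155), and it passed without NT replicate 1 and IR_iEV_30d replicate 3, at 1.90 ± 0.34 (edgeR adjusted p = 0.00686). Between IR_iEV_30d and NT 1.1% of all genes passed, and 1 member, Nr1d1, had an unadjusted p under 0.05, against 12.9% of all genes. Its log2 ratio was -1.41 ± 0.61 (edgeR adjusted p = 0.369), and -2.18 ± 0.54 without NT replicate 1 and IR_iEV_30d replicate 3 (edgeR adjusted p = 0.202). DESeq2 and limma-voom called 0 in all 3.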

How the data were processed

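RNA was extracted with TRIzol and made into libraries with a directional kit, per the labels' protocols. The authors deposited whole-number counts per gene symbol, 1 column per library, and per the submitters' processing notes TopHat, HTSeq, DESeq2 and build GRCm39 were used; versions, strand setting and annotation are not given in the sources used here. No annotation of that build was used, so genes carry no coordinates; exonic lengths and overlaps come from GENCODE M21.

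The tests used edgeR 4.0.16 (R 4.3.3) on these counts, with TMM scaling, filterByExpr (minimum count 10, minimum total 15), and a robust quasi-likelihood test in 1 model of 15 libraries with 10 residual degrees of freedom. P-values were adjusted by Benjamini-Hochberg over all 16042 genes within each of 9 comparisons (threshold 0.05). The SE of a log2 ratio is its size over the root of its F statistic. The procedure was tested on simulated data. Correlations used log2 CPM with prior count 2. Replicates differed beyond sampling noise (chi-square per degree of freedom at least 11.1). Replicate numbers were not used to pair libraries in the main model. Of 30 same-number pairs, 5 had a correlation of deviations over 0.1 (-0.292 to 0.188). Pairs of different number were not measured, so these values cannot decide whether the numbers pair libraries.

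All 10 members, other clock genes and the other lists are named by a set rule, with the 5 genes most and least like the profile. Results for some listed genes are not reported here. Members and lists were chosen with earlier results of these data known. Alternatives were DESeq2 1.42.0, limma-voom (limma 3.58.1), DESeq2 size factors, no filter, only the groups compared, a replicate block, tissue markers as covariates, leaving out libraries high in sublingual markers, each library in turn, and 2 libraries together, the last chosen after the data were seen.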

Additional observations from a re-analysis of the deposited data

How the results depend on the processing

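Across 1401 values of single members under these alternatives, 1272 kept their direction and their side of the threshold, 20 lost a call, 9 gained one, 100 uncalled values changed sign and 0 called values did. In IR_30d against NT the count of members called was 1; it was 1 with DESeq2, DESeq2 size factors and no filter, 0 with limma-voom, with only the groups compared, with tissue markers as covariates and with the replicate block, 0 to 2 with each library left out in turn, and 3 (Nr1d1, Dbp and Cry1) without NT replicate 1 and IR_iEV_30d replicate 3 together. In that last fit 676 of 16325 genes passed, against 718 of 16042 with all libraries. With the 6 libraries high in sublingual markers left out the count of members was 1, but Cry1 in place of Nr1d1. There 491 of 16848 genes passed. NT replicate 1 is among those 6, and Cry1 also passed with that library alone left out, so the calls are not separate. In IR_30d against IR_4d the count was 1. It was 0 with limma-voom, the replicate block, the covariates and with each library left out (0 to 0). It was 2 (Nr1d1 and Dbp) without the 2 libraries together, where 1542 of 16325 genes passed, against 1092 of 16042 with all libraries. Leaving out those 6 kept only replicate 3 in IR_4d, so no count is given for it. The replicate block gave Nr1d1 an edgeR adjusted p of 0.0865 and 0.0722 in these comparisons and changed no other call of a member. In IR_iEV_4d against NT the count was 0. It was 1 (Cry1) without the 2 libraries together, and 0 to 1 with each library left out. Without the 2 together 1116 of 16325 genes passed, against 371 of 16042 with all libraries. Leaving out those 6 kept only replicate 1 in IR_iEV_4d, so again no count is given. In IR_iEV_30d against NT it was 0 (177 of 16042 genes passed). It was 1 (Cry1) with those 6 left out, NT replicate 1 again among them (104 of 16848 genes passed). The cause was not tested. With 3 libraries per group, 95% intervals of Dbp reached about 2 log2 units to either side. Its ratios of -2.44 to NT and -2.41 to IR_4d in IR_30d did not pass, so even shifts of that size could go uncalled.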

Other observations

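Lists of genes that respond to handling, stress or temperature were measured beside the clock. Of 10 immediate early genes (such as Fos, Egr1 and Atf3), 0 passed in any comparison in edgeR, where 0.0312% to 8.27% of all genes did. Their mean log2 CPM was 3.26, 3.49 and 4.09 in IR_iEV_4d, against 3.06, 3.43 and 5.97 in IR_4d. All 10 had log2 ratios below 0 between these groups (median -0.81, against 0.00 for all genes, 1 at an unadjusted p under 0.05, against 6.81% of all genes), but without IR_4d replicate 3 the median was 0.19, with 8 of 10 above 0. All 10 were above 0 in IR_iEV_30d against IR_iEV_4d (median 1.06, against -0.01, 2 at an unadjusted p under 0.05, against 24.2% of all genes), and with each library left out in turn the median was 0.79 to 1.21. These left-out values were added after the data were seen. Of 10 glucocorticoid-responsive genes (such as Tsc22d3, Fkbp5 and Sgk1), 0 passed in any comparison, and 8 had an unadjusted p under 0.05 in IR_iEV_30d against IR_iEV_4d, where 24.2% of all genes did, with a median of 0.57. Of 8 heat shock and cold-induced genes, 1 passed between IR_30d and NT, where 4.48% of all genes did. It was Hspa8, a constitutive chaperone, higher in IR_30d (log2 ratio 0.57 ± 0.12, edgeR adjusted p = 0.0113). Between IR_iEV_30d and IR_iEV_4d 1 of 8 passed, where 8.27% of all genes did. It was Cirbp, the cold-inducible RNA-binding protein, higher in IR_iEV_30d (0.82 ± 0.17, edgeR adjusted p = 0.00809). Rbm3, also on that list, passed in neither. Whether these genes and the clock genes moved for a shared reason was not tested.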
